A study of Mus musculus with 42 samples.

Results

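The claudins and their companions of the tight junction were followed by name through the bulk RNA-seq of mouse colon. The 10 genes were Cldn1, Cldn2, Cldn3, Cldn4, Cldn7, Cldn8, Cldn15, Cldn23, Tjp1 and Ocln, out of 19232 named genes that occurred in any of the 12 deposited tables. 9 of the 10 had a row in every table. Cldn1 had a row in the 4 stromal tables and was not analysed here in goblet cells or organoids. The series held 42 libraries of 3 kinds. Goblet cells (Muc2-mCherry+) and stromal cells (Gli1-tdTomato+) were each sorted from proximal and distal colon of mice aged 2 to 4 months, with 2 libraries per group. All these mice carried Gli1-CreERT2 and received tamoxifen for 5 days, with collection on day 30. The control mice (GWTM2 for goblet cells, GWTT for stromal cells) carried the recombinase without a floxed gene, the GS4M2 and GS4T mice were also Smad4 fl/fl, and the GA3M2 and GA3T mice were Alk3 fl/fl (Alk3 is the BMP receptor gene Bmpr1a). The recombinase acts in Gli1+ stromal cells, so that goblet cells were read as neighbours of the cells meant to lose the gene. Wild-type organoids, from distal colon according to the paper, were cultures of colon epithelium grown with EGF, Noggin, R-spondin1, Wnt3a and CHIR99021. They were left untreated or given 10 nM of IL-1 (IL-1α with IL-1β) or of IL-17A for 12 or 72 h. Each group held 3 libraries.

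Tight junctions seal the space between neighbouring epithelial cells near their apical side. Claudins are membrane proteins whose extracellular loops meet those of the next cell and set which ions pass, occludin (Ocln) lies beside them, and ZO-1 (Tjp1) is a scaffold inside the cell that ties them to actin. Claudin-2 and claudin-15 form channels for small cations, and claudins such as claudin-1, claudin-3, claudin-4 and claudin-8 are counted among those that tighten the seal. In colon, Cldn2 is known from the crypt base, and Cldn4 and Cldn23 are known from cells nearer the surface.

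The libraries held between 14222902 and 23686940 reads in named genes. Labels do not say which libraries came from separate mice or cultures, so the p-values measure the spread between libraries. The tables of a cell type and segment, or of a time, share their control libraries. Among the organoids, Control 12h replicate 2 held the same reads as Control 72h replicate 1, and Control 12h replicate 4 the same as Control 72h replicate 4, which leaves 4 distinct control libraries behind the 2 times. 3 further organoid pairs (IL1 12h replicates 3 and 4, IL17A 12h replicates 3 and 4, Control 72h replicates 2 and 4) lay far closer to each other than any other pair of replicates, with a chi-square per degree of freedom of 3.03 to 3.32 against 18.05 to 212.01. The time at which the shared controls were collected is not known, and Control 72h replicate 2 was near-identical to 1 of them. A cytokine effect at 72 h therefore cannot be told apart from culture time. The same limit holds at 12 h, where 2 of the 3 controls are the shared libraries. Read from Xist and chromosome Y genes, replicate 1 of GWTM2 was female in both segments and the other 10 goblet cell libraries were male. Among stromal libraries, replicate 1 of GWTT proximal, GA3T proximal and GA3T distal was male and the rest were female. The targeted genes followed the labels in direction. Smad4 fell in proximal GS4T cells from 1604 and 1673 to 705.5 and 835 normalized counts (log2 fold change -1.09 ± 0.12 SE, adjusted p = 0.0101) and stood at 680 and 1171 against 1781 and 1703 in the distal ones (-0.96, adjusted p = 0.0424). Bmpr1a was at 2234 and 1842 against 2960.0 and 3220 in proximal GA3T cells (-0.61, adjusted p = 0.12) and at 2203 and 2043 against 3359 and 3484.5 in distal ones (-0.69, adjusted p = 0.101).

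The 250 bases before the start of Cldn4, Cldn3 and Cldn2 are shown. These genes passed the test used below in distal GS4T cells and in organoids after 72 h of IL-1. Cldn8 and Cldn23 did so too and had no sequence to show. Cldn3 and Cldn4 lie 39279 bases apart on chromosome 5, are read outwards from the interval between them and consist of 1 exon each, and Cldn2 lies on chromosome X. The genes span chr5:134945119-134946934 (Cldn4), chr5:134986214-134987472 (Cldn3) and chrX:139800828-139811386 (Cldn2) in the GRCm38 annotation. The sequences are RefSeq's on GRCm38.p6, on the strand of the gene, and 8 of the 10 genes matched that table (Cldn8 and Cldn23 did not). Capitals mark the AP-1 site TGANTCA and the GC box GGGCGG (or its reverse complement) in Cldn4, the GC box in Cldn3 and the CDX site TTTATG in Cldn2, where N stands for any base and no matches overlapped. Both strands were searched.
Cldn4, chr5:134946935-134947184, minus strand: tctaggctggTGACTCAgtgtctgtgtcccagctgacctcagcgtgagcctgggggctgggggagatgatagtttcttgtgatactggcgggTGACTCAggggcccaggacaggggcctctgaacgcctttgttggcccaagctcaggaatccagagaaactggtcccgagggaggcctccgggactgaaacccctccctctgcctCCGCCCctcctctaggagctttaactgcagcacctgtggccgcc
Cldn3, chr5:134985964-134986213, plus strand: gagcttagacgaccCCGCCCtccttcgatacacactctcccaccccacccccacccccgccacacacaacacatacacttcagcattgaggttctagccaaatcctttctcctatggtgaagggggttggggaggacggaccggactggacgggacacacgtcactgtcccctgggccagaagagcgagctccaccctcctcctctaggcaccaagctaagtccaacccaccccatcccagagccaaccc
Cldn2, chrX:139800558-139800807, plus strand: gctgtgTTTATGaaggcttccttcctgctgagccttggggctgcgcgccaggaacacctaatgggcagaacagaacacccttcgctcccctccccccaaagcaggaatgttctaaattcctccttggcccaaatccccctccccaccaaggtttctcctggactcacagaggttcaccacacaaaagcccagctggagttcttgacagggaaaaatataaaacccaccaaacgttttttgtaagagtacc
Cldn4 held 2 AP-1 matches, beginning 240 and 158 bases before the start, and Cldn15 held 1. None of the other 6 promoters read here held one, and 6.7% of 32851 RefSeq promoters of this length did. The GC box was present in the windows of Cldn1, Cldn3, Cldn4, Cldn15, Tjp1 and Ocln, against 32.7% of all promoters. The CDX match was found in Cldn2 alone among the 8 and in 10.8% of all promoters. The GC-rich element GGCGCC, known from BMP-responsive SMAD binding, was in none of the 8 and in 9.6% of all promoters.

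The claudins differed widely in level within control cells. Levels are compared between genes as CPM, the reads of a gene scaled to a common library size, per kb of exon. In proximal GWTM2 goblet cells Cldn3 was at 424 ± 14.7 (SD, n = 2), Cldn7 at 327 ± 0.642, Cldn2 at 197 ± 45.2 and Cldn15 at 182 ± 0.832. Cldn23 followed at 36.8 ± 3.09, Ocln at 23.0 ± 0.0234, Tjp1 at 15.3 ± 0.173, Cldn8 at 10.98 ± 2.48 and Cldn4 at 10.6 ± 1.40. Cldn2 and Cldn15, and Cldn8 and Cldn4, overlapped between libraries, and all other neighbours in the order did not. In distal GWTM2 cells Cldn3 (436.5 ± 61.7) and Cldn7 (362 ± 30.8) again led, Cldn15 (129 ± 3.86) and Cldn2 (110.4 ± 77.3) overlapped, and the 4 lowest, Ocln, Tjp1, Cldn8 and Cldn4, each overlapped the next. Untreated organoids at 12 h had the same leaders, with Cldn3 at 345 ± 40.4 (SD, n = 3) and Cldn7 at 256 ± 19.4. There Cldn4 came next at 175 ± 7.11, in place of the last rank it held in goblet cells, and its range overlapped that of Cldn15 (127 ± 46.8). Cldn8 was lowest in organoids at 9.51 ± 4.85. These organoid and goblet levels were set across separately normalized tables, which the CPM scale puts on a common base, and their difference was not tested.

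In Gli1-tdTomato+ stromal cells, Tjp1 led with 17.4 ± 0.577 CPM per kb in proximal and 16.3 ± 0.0718 in distal GWTT cells (SD, n = 2). Cldn1 was at 11.5 ± 0.600 in distal cells, above the 8 other members there without overlap, and at 4.16 ± 1.64 in proximal cells. Every claudin other than Cldn1 was at or below 14.1 CPM per kb in each GWTT library, and those of proximal replicate 2 were several times those of replicate 1, as with Cldn7 at 14.0 and 1.19 and Cldn3 at 14.1 and 0.292. Ocln, at 0.344 ± 0.404 and 0.177 ± 0.0699, was lowest of the 10 by mean in both segments. It overlapped its neighbours in the order, and Cldn8 was at 0 in 1 proximal GWTT library.

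**Figure D1:**
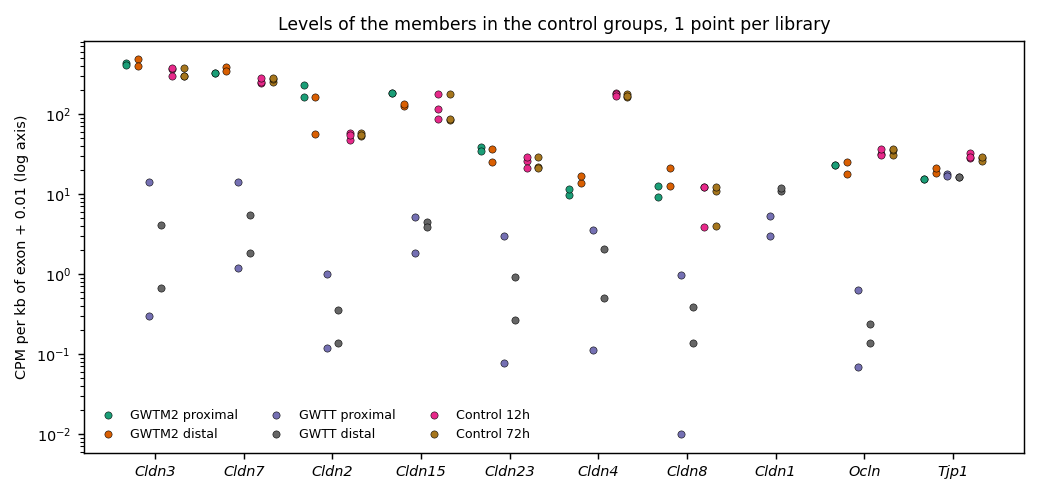
Level of each gene in the control groups, as CPM per kb of exon plus 0.01 on a log axis, with 1 point per library and groups marked by colour. Cldn3 and Cldn7 lead in goblet cells and organoids, Cldn4 is at 9.64 to 16.8 in goblet cells and 161 to 181 in organoids, and Tjp1 leads in stromal cells.

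The comparison of proximal with distal goblet cells of control mice asked whether junction genes differ along the colon. No member passed the test, where 27 of 13292 rows, or 0.203%, did. A gene was called when the adjusted p of limma was below 0.05 and the log2 fold change at least 1 in size, which is used throughout. At an unadjusted p below 0.05 with that fold, 0 members and 710 rows passed, and edgeR and DESeq2 called no member and 24 and 393 rows. Cldn15, a cation channel claudin, was at 386 and 389 CPM in proximal and 268 and 280 CPM in distal libraries (log2 difference 0.50 ± 0.11, adjusted p = 0.174). Cldn2 was at 761 and 548 CPM in proximal and 549 and 185 CPM in distal cells (1.02 ± 0.53, adjusted p = 0.515), and the higher library of each segment was the female one. Cldn4 (-0.53 ± 0.19, adjusted p = 0.355) and Cldn8 (-0.59 ± 0.30, adjusted p = 0.509) had lower values in proximal cells, as had Tjp1 (-0.36 ± 0.12, adjusted p = 0.33). Cldn3, Cldn7, Ocln and Cldn23 differed by -0.04, -0.15, 0.13 and 0.28. With the replicate number as a block Cldn2 was called (1.02, adjusted p = 0.0445, with 542 rows called). The numbers match in sex across the segments and are not known to pair the libraries. Over all 12 goblet cell libraries, with genotype in the fit, Cldn8 was called (-1.23, adjusted p = 0.00227) and no other member was.

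Cldn4 was the member that moved most in goblet cells when Smad4 or Alk3 was targeted in the stroma. In proximal GS4M2 goblet cells it rose from 298 and 362 normalized counts to 2066 and 2991, 7.56-fold (log2 fold change 2.92 ± 0.20, adjusted p = 0.0172). It was the only 1 of 9 members called there, where 43 of 13246 rows, or 0.325%, were. The group of each library was taken from its deposited column name, which a heading elsewhere in the study's material reverses for this comparison. The columns named GWTM2 held the same reads as the GWTM2 columns of the proximal GA3M2 table, in 100% of the rows compared. Both GS4M2 libraries lay far above both controls, and the call was kept when any 1 library was left out and by edgeR and DESeq2.

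In the other 3 goblet cell comparisons the values of Cldn4 were also higher than the controls without overlap, and limma did not call them. Distal GS4M2 cells held 1222 and 3148 normalized counts against 444.5 and 553.5 (1.98 ± 0.45, adjusted p = 0.381). Proximal GA3M2 cells held 2526 and 6016 against 317 and 382 (3.48 ± 0.40, adjusted p = 0.0604), and distal ones 3333 and 5382 against 425 and 534 (3.15 ± 0.27, adjusted p = 0.121). The knockout libraries of a group differed from each other, and the lower of them was still well above the higher control. DESeq2 called Cldn4 in all 4 comparisons (adjusted p between 1.24e-35 and 1.78e-04), and edgeR only in proximal GS4M2 cells (adjusted p = 0.0149). With library sex as a block, an alternative chosen after seeing the data, Cldn4 was called in proximal (3.35, adjusted p = 0.0334) and distal (2.98, adjusted p = 8.04e-08) GA3M2 cells. No GA3M2 library was female, so this sets 2 knockout libraries against 1 male control, whose spread is assumed to be like that of the knockout libraries. Without the male control in its place the log2 fold change was 3.62 (adjusted p = 0.0167) and 3.31 (adjusted p = 2.85e-09).

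No member was called by limma in those 3 comparisons. The background was 0 of 13078 rows, or 0%, in distal GS4M2 cells, 12 of 13346, or 0.0899%, in proximal GA3M2 cells and 0 of 13082, or 0%, in distal GA3M2 cells. At an unadjusted p below 0.05 with the fold, 1, 1 and 2 members passed, beside 353, 911 and 539 rows. edgeR called 0 members in each (0, 14 and 0 rows) and DESeq2 called 1 in each (147, 431 and 240 rows).

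Cldn2, the cation channel claudin of the crypt base, was higher in GA3M2 cells of both segments without passing the test. Proximal GA3M2 libraries held 22537 and 17440.1 normalized counts against 13780 and 9925 (0.76 ± 0.27, adjusted p = 0.286). Distal ones held 15869 and 13829 against 9297 and 3237 (1.43 ± 0.48, adjusted p = 0.38), where the 9297 belonged to the female library. With sex as a block, that is against the male control alone, the distal difference was 2.19 with an adjusted p of 8.87e-07, and against the female control alone it was 0.67 with an adjusted p of 0.14. In GS4M2 cells Cldn2 overlapped the controls in both segments.

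Cldn15 had lower values than the controls in all 4 goblet cell comparisons without overlap, by 0.22 to 0.43 on the log2 scale, and none was called (adjusted p between 0.352 and 0.483). In proximal GA3M2 cells it was at 5637 and 5016 normalized counts against 6997 and 7041. Cldn8, a sealing claudin of the distal colon, was at 184 and 251 against 511 and 372 in proximal GS4M2 cells (-1.02 ± 0.23, adjusted p = 0.131). DESeq2 called it there (adjusted p = 0.00841), and in the other 3 comparisons its libraries overlapped the controls. Tjp1 was at 1603 and 1546 against 2182 and 2147 in proximal GA3M2 cells (-0.46 ± 0.16, adjusted p = 0.276) and at 1834 and 2421 against 2423 and 2870 in distal ones (-0.32 ± 0.19, adjusted p = 0.561). Ocln was lower without overlap in proximal GS4M2 cells, at 1254 and 1414 against 1651 and 1665 (-0.32 ± 0.11, adjusted p = 0.224). Cldn3, Cldn7 and Cldn23, the other claudins of the list, differed by at most 0.51 on the log2 scale in every goblet cell comparison and were not called.

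Members whose libraries did not overlap between groups numbered 5, 2, 6 and 4 of 9 in proximal GS4M2, distal GS4M2, proximal GA3M2 and distal GA3M2 cells. Between 22.1% and 26.1% of all rows lay wholly above, and about as many wholly below, the controls in these comparisons. The median log2 fold change of the 9 members was 0.01, -0.20, 0.40 and 0.03, against 0.00 over all rows.

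Other cell markers moved beside these values. In proximal GA3M2 cells Epcam, which marks epithelial cells, was at 39906 and 58961 normalized counts against 31592 and 31591, and the 12 goblet cell markers summed to 11750 to 15780 CPM against 33110 to 36910 CPM in controls. Muc2, the gene of the sorting reporter, was called downward there, the only 1 of the 12 that was. In distal GA3M2 cells the same 12 markers summed to 16970 to 26470 CPM against 38450 to 65140 CPM. None of them was at 0. In proximal GA3M2 cells the 6 of 10 immune markers with a row summed to 29.8 to 36.8 CPM against 8.06 to 10.4 CPM. Lyz2, a macrophage lysozyme that was at 0 in the controls along with S100a8, was called upward there. Of the 12 stromal markers 6 were tested in these cells and 5 were higher, with a median log2 fold change of 4 and none called. The filter on the mean lets in genes that are high in 1 group alone. In each other goblet cell comparison 2 stromal markers were tested, with 0 or 1 higher. In distal GA3M2 cells 5 immune markers summed to 30.97 to 37.4 CPM against 5.44 to 14.4 CPM. In proximal GS4M2 cells the 12 surface colonocyte markers summed to 1913 to 3200 CPM against 3815 to 8184 CPM, with Saa1 called upward and none downward. Their median log2 fold change was -0.29 there, with 3 of 12 higher. The other comparisons went the other way, with medians of 0.32 in distal GS4M2, 0.47 in proximal GA3M2 and 0.49 in distal GA3M2 cells. There 7, 7 and 8 of the 12 were higher and none was called. In GS4M2 cells the goblet cell markers summed to 38830 to 42180 CPM against 33130 to 36930 CPM in proximal and to 43890 to 51330 CPM against 38460 to 65150 CPM in distal cells. Per 1000 Epcam reads, Cldn4 gave 10.0 to 18.2 reads in GWTM2 libraries, 45.2 to 99.2 in GS4M2 and 63.3 to 142 in GA3M2 libraries. Cldn3 gave 294.7 to 323 reads in GWTM2 and 222 to 311 in the knockout libraries on this scale. The part of these marker changes in the Cldn4 values was not tested. In a bulk library, fewer cells of a type and less RNA per cell cannot be told apart.

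**Figure D2:**
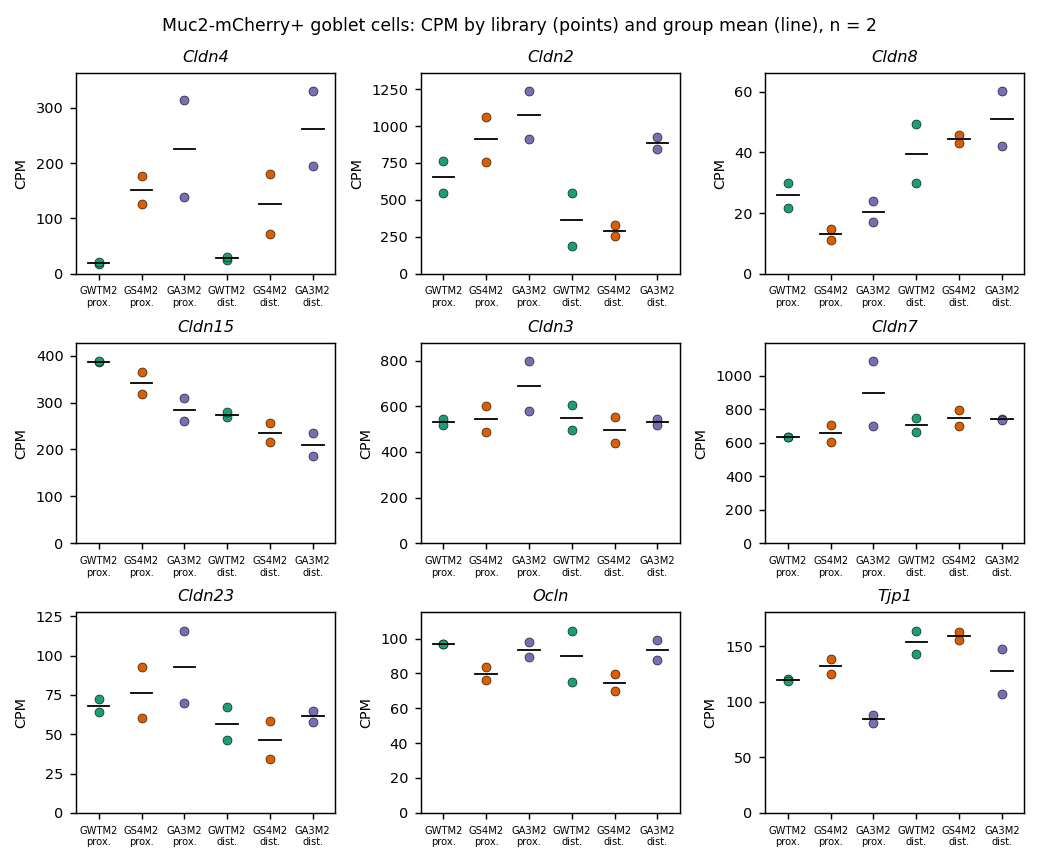
CPM of the 9 genes in each goblet cell library (points) with the group mean (line), for GWTM2, GS4M2 and GA3M2 cells of proximal and distal colon, n = 2 per group and axes from 0. Cldn4 is 17.5 to 30.6 CPM in the 4 control libraries and at least 72.6 CPM in all 8 knockout libraries, and Cldn15 is lower in every knockout group than in its control.

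Whether a stromal deletion acted differently in the segments was tested as the proximal minus the distal effect. For GS4M2, 0 of 9 members and 0 of 13002 rows, or 0%, were called by limma and by edgeR, with 1 member (Cldn8, -1.16 ± 0.40, adjusted p = 0.565) and 307 rows at an unadjusted p below 0.05 with the fold. For GA3M2, 0 of 9 members and 0 of 13191 rows, or 0%, were called by both, with 0 members and 133 rows unadjusted. The difference for Cldn4 was 0.94 ± 0.58 in GS4M2 and 0.33 ± 0.56 in GA3M2 cells.

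In stromal cells of GS4T mice, epithelial claudins rose in distal colon. 7 of 10 members were called there, all upward, where 2130 of 15262 rows, or 14%, were called in either direction. Cldn4 went from 14.7 and 60.0 to 845 and 1469 normalized counts (5.17 ± 0.65, adjusted p = 0.00547) and Cldn2 from 6.8 and 18.4 to 200.2 and 282 (4.27 ± 0.53, adjusted p = 0.00541). Cldn3 rose by 4.02 ± 0.90 (adjusted p = 0.0277), Ocln by 3.13 ± 0.55 (adjusted p = 0.0143), Cldn8 by 3.10 ± 0.69 (adjusted p = 0.0282), Cldn7 by 3.09 ± 0.58 (adjusted p = 0.0175) and Cldn23 by 2.91 ± 0.74 (adjusted p = 0.0393). All 7 lay above both controls in both GS4T libraries, as did 34.4% of rows.

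Epcam, an epithelial surface protein that stromal cells are known to lack, rose in the same libraries. It stood at 146.7 and 422 normalized counts in distal GWTT and at 1889 and 3361 in distal GS4T libraries. The 12 epithelial markers summed to 89.9 to 251 CPM in distal GWTT and to 956 to 1904 CPM in distal GS4T libraries, 11 of the 12 were called upward and none was at 0. The 12 stromal markers, among them Col1a1 and Pdgfra, summed to 48230 to 58460 and to 60040 to 61250 CPM. Per 1000 Epcam reads, Cldn7 gave 393 to 404 reads in distal GWTT and 303 to 376 in distal GS4T libraries, and Cldn3 gave 93.3 to 199.5 and 178 to 292. Cldn4 gave 100.0 to 142 reads in distal GWTT and 437 to 447.5 in distal GS4T libraries, and Cldn2 43.6 to 46.7 and 83.9 to 106. Beside Epcam, then, Cldn7 was somewhat lower and both Cldn4 and Cldn2 were higher in the distal GS4T libraries. The part of epithelial RNA in these differences was not tested. The distal GWTT ratios rest on 150 and 436 Epcam reads, and on far fewer reads of Cldn2. The Cldn2 ratio overlapped the controls in proximal GS4T cells, at 94.15 to 226.4 against 52.17 to 117.6, and in GA3T cells of both segments. Leaving out GS4T distal replicate 2 left 2 members called (with 1915 rows), GS4T distal replicate 1 or GWTT distal replicate 1 left 4 (1662 and 1194 rows), and GWTT distal replicate 2 left 6 (1238 rows).

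In proximal GS4T cells no member was called by limma, where 1472 of 15319 rows, or 9.61%, were. At an unadjusted p below 0.05 with the fold, 4 members and 2446 rows passed, edgeR called 0 members (1452 rows) and DESeq2 2 (2006 rows). The control libraries were far apart, and Cldn4 was at 3.1 and 107.6 normalized counts against 1197 and 1083.5 (5.76 ± 1.49, adjusted p = 0.0604). Epcam was at 52.7 and 1060.5 in the same 2 control libraries and at 2713 and 3918 in the GS4T ones. Cldn2 was at 6.2 and 55.3 against 255.5 and 887 (4.57 ± 1.11, adjusted p = 0.0528). 8 members lay wholly above the controls, where 34.0% of rows did. Without GWTT proximal replicate 2, the library of the higher Epcam, 8 members were called with 2154 of 15278 rows, without replicate 1 there were 6 with 1625 of 15289 rows, and without GS4T replicate 1 or 2 none, with 119 and 360 rows.

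In GA3T cells no member was called in either segment by limma or edgeR. The background was 55 of 15346 rows, or 0.358%, in proximal and 0 of 15414, or 0%, in distal cells. Unadjusted, with the fold, 3 members and 1451 rows passed in proximal and 6 members and 1197 rows in distal cells. edgeR called 0 rows in both, and DESeq2 called 0 members (969 rows) in proximal and 4 members (776 rows) in distal cells. Distal GA3T libraries held 600.5 and 376 normalized counts of Cldn4 against 16.7 and 68.3 (3.76 ± 0.68, adjusted p = 0.116), and Epcam was at 2509 and 1270.5 against 167 and 480.3. Proximal GA3T libraries held 283 and 463 of Cldn4 against 3.3 and 113 (4.04 ± 1.55, adjusted p = 0.228), with Epcam at 1234.5 and 1897 against 55.5 and 1115. As in GS4T cells, Cldn4 per 1000 Epcam reads was above the controls, at 229 to 296 against 58.8 to 142, and Cldn7 was not, at 366.5 to 407 against 393 to 745. Cldn2 overlapped the controls on this scale. It gave 81.17 to 105.0 reads against 52.17 to 117.6 in proximal and 35.04 to 73.64 against 43.58 to 46.67 in distal GA3T cells. The GWTT libraries with the fewest Epcam reads, 51 and 150.0, give these ratios little depth.

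**Figure D3:**
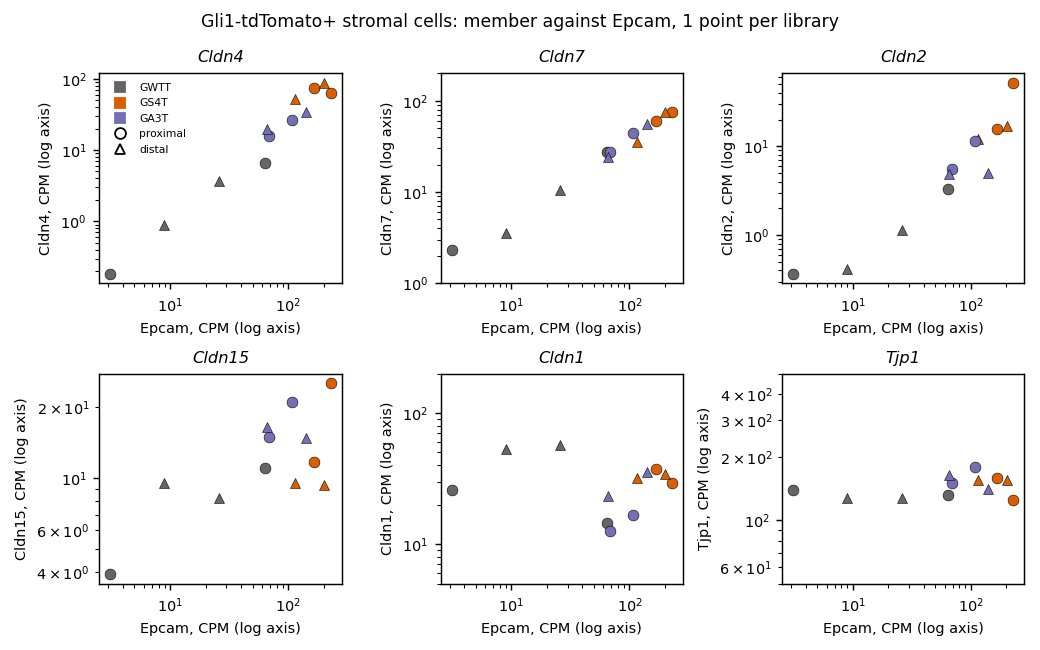
Members against Epcam in stromal cells, both as CPM on log axes, 1 point per library coloured by genotype. Cldn7 climbs with Epcam over the 12 libraries, Cldn4 lies higher in GS4T and GA3T libraries, and Tjp1 is about level across the range of Epcam. Every GS4T and GA3T library held more Epcam reads (1195 to 3931) than any GWTT library (51 to 1035). Cldn4 is therefore not compared at a matched Epcam.

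Tjp1, which led in stromal cells, and Cldn1, next to it in distal ones, did not follow Epcam. Cldn1 was lower in distal GS4T cells, at 521 and 572 normalized counts against 875 and 933 (-0.73 ± 0.13, adjusted p = 0.0133), which missed the fold set for a call. It stood at 630 and 452 against 998 and 1062 in distal GA3T cells (-0.95 ± 0.19, adjusted p = 0.128). In proximal GS4T cells it had higher values, at 610.5 and 496 against 435 and 241 (0.76 ± 0.31, adjusted p = 0.155). The proximal minus the distal effect of GS4T on Cldn1 was 1.49 ± 0.37 with an adjusted p of 0.181. Tjp1 lay between 2066 and 3181 normalized counts in every stromal library. It was above its controls without overlap in distal GS4T cells, at 2543 and 2584.5 against 2099.5 and 2066 (0.30 ± 0.10, adjusted p = 0.0763). The same held in GA3T cells, at 2703 and 3153 in proximal (0.29 ± 0.13, adjusted p = 0.264) and 2514 and 3181 in distal cells (0.25 ± 0.15, adjusted p = 0.406). Of all rows, 34.4% lay wholly above the controls in distal GS4T, 28.8% in proximal GA3T and 27.5% in distal GA3T cells. Cldn15 was at 66.2 to 434 normalized counts and was not called in any stromal comparison.

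The proximal minus the distal effect was also tested in stromal cells. For GS4T, 0 of 10 members were called, where 29 of 15314 rows, or 0.189%, were, with 1 member (Cldn1) and 798 rows unadjusted with the fold and 0 members and 1 row by edgeR. For GA3T, 0 of 10 members and 0 of 15301 rows, or 0%, were called by limma and by edgeR, with 0 members and 487 rows unadjusted.

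In organoids at 12 h no member was called. With the shared controls, cytokine and culture time cannot be told apart at 12 h either. The background was 7 of 12913 rows, or 0.0542%, for IL-1 and 5 of 12977, or 0.0385%, for IL-17A. With an unadjusted p and the fold, 0 members passed in both (119 and 140 rows), and edgeR (2 and 4 rows) and DESeq2 (43 and 51 rows) called 0 members. Cldn2 was lower without overlap under both cytokines, as were 4.2% of rows after IL-1 and 5.0% after IL-17A. It was at 1926, 2097 and 1955 normalized counts after IL-1 against 2571.5, 3024 and 2789 (-0.49 ± 0.10, adjusted p = 0.514) and at 2386, 2202 and 2309 after IL-17A against 2699.7, 3169 and 2920.0 (-0.35 ± 0.10, adjusted p = 0.778). Cldn4 was higher without overlap after IL-1, at 6971, 6012 and 6117 against 5306, 5125 and 4689 (0.34 ± 0.11, adjusted p = 0.886). Of all rows, 5.3% lay wholly above the controls there. Cldn8 was at 640.2, 640.5 and 627 after IL-17A against 494, 154 and 468 (0.95 ± 0.43, adjusted p = 0.926). The difference was 0.40 without the control at 154, Control 12h replicate 2, and also 0.40 with the replicate block. After IL-1 the difference for Cldn8 was 0.56, and 0.01 without that control. The other 6 members differed by -0.43 (Cldn15) to 0.20 (Tjp1) after IL-1 and by -0.31 (Cldn15) to 0.15 (Tjp1) after IL-17A, and Cldn4 by 0.17 after IL-17A.

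At 72 h 4 claudins were higher and Cldn2 was lower with IL-1 than in the controls. Given the shared controls, the cytokine and culture time cannot be told apart here or for IL-17A. 5 of 9 members were called, 4 upward and 1 downward, where 2998 of 13023 rows, or 23%, were called in either direction. Cldn4 rose from 4859, 4413 and 4499 to 24636, 11987 and 19791 normalized counts, 3.93-fold (1.97 ± 0.26, adjusted p = 0.00304). All 3 IL-1 libraries lay far above the highest control, and 27.0% of all rows lay wholly above the controls. Cldn23 rose from 804.5, 599 and 586 to 2682, 1442 and 2750.0 (1.74 ± 0.27, adjusted p = 0.00405). Cldn3 rose from 7108, 5655 and 5575 to 18845, 12105 and 16110.4 (1.35 ± 0.20, adjusted p = 0.00383). Cldn8 rose from 139, 382 and 429 to 671, 815 and 745 (1.38 ± 0.40, adjusted p = 0.0288), and the control at 139 stood apart. Without that control its fold fell below the set size (0.87, adjusted p = 0.0128), and without any 1 IL-1 library its adjusted p lay between 0.0571 and 0.0823.

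Cldn2 fell after 72 h of IL-1 from 2867, 2629 and 2675 to 1681, 602 and 314 normalized counts, 3.99-fold lower (-1.995 ± 0.52, adjusted p = 0.0197). The 3 IL-1 libraries did not overlap the controls and spread widely among themselves. Of all rows, 27.8% lay wholly below the controls. The call was lost, at adjusted p values of 0.0513 to 0.0543, without any 1 control or without IL1 72h replicate 2, and the log2 difference then lay between -2.02 and -1.90. It was also lost when the near-identical controls 2 and 4 were averaged (-2.01, adjusted p = 0.0521). Cldn7 rose by less than the set fold, from 7357, 7923 and 8037 to 18105, 13010 and 14434 (0.95 ± 0.17, adjusted p = 0.0055), as did Tjp1 from 3314, 3071 and 3347 to 4080, 5249 and 5972 (0.64 ± 0.17, adjusted p = 0.0201). Ocln (0.47 ± 0.19, adjusted p = 0.0808) and Cldn15 (-0.13 ± 0.38, adjusted p = 0.811) did not pass the test.

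IL-17A for 72 h gave calls for Cldn4, Cldn23 and Cldn3, all upward, 3 of 9 members where 1038 of 13073 rows, or 7.94%, were called. Cldn4 was at 19118, 11202 and 27275 normalized counts against 4849, 4388 and 4489.5 (1.98 ± 0.31, adjusted p = 0.0346). Cldn23 was at 2279, 1091.5 and 3531 against 803, 596 and 585 (1.66 ± 0.41, adjusted p = 0.0489), and Cldn3 at 15005, 9357 and 19371 against 7094, 5623 and 5563 (1.21 ± 0.28, adjusted p = 0.0465). Of all rows, 21.7% lay wholly above the controls. IL17A 72h replicate 2 was the lowest of its group for all 3 genes and still above every control. Without it 5 members and 3577 rows were called, and without any other library of the comparison no member and 3 to 218 rows were. None was called either when the near-identical controls 2 and 4 were averaged (Cldn4 adjusted p = 0.164) or with library sex as a block (adjusted p = 0.203), where all 3 IL-17A libraries were male and 2 of the 3 controls female. Cldn7 reached 0.95 ± 0.17 with an adjusted p of 0.0356, below the set fold. Cldn2 was at 2228, 2470 and 442 against 2861, 2614 and 2670.0 (-1.01 ± 0.62, adjusted p = 0.259), with replicate 3 alone far below the controls. Cldn8 was at 818, 348 and 1023 against 139, 379.8 and 428 (1.23 ± 0.55, adjusted p = 0.145).

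Markers of crypt position moved in the same libraries. After IL-1 for 72 h the 8 stem and crypt base markers summed to 219.5 to 559 CPM against 1467 to 1660 CPM, and 7 of the 8 were called downward, Lgr5 and Ascl2 among them. The 12 surface colonocyte markers summed to 5944 to 13400 CPM against 2330 to 5506 CPM, and 8 of the 12 were called upward. After IL-17A the stem markers summed to 243 to 1211 CPM against 1294 to 1575 CPM with none called, and the surface markers to 4415 to 12180 CPM against 2311 to 5339 CPM with 2 called upward. Only 6 of the 8 stem and 11 of the 12 surface markers were tested there. The sums of the 2 cytokines are therefore not over the same genes. Epcam was at 42294, 26821 and 36330.0 normalized counts after IL-1 against 19769, 19149 and 19103. Per 1000 Epcam reads Cldn4 gave 447 to 582.5 reads after IL-1 and 426 to 650.0 after IL-17A against 230.4 to 246 in the 72 h controls, and Cldn7 gave 397 to 485 and 386 to 473 against 372 to 421. The part of these marker changes in the claudin values was not tested.

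**Figure D4:**
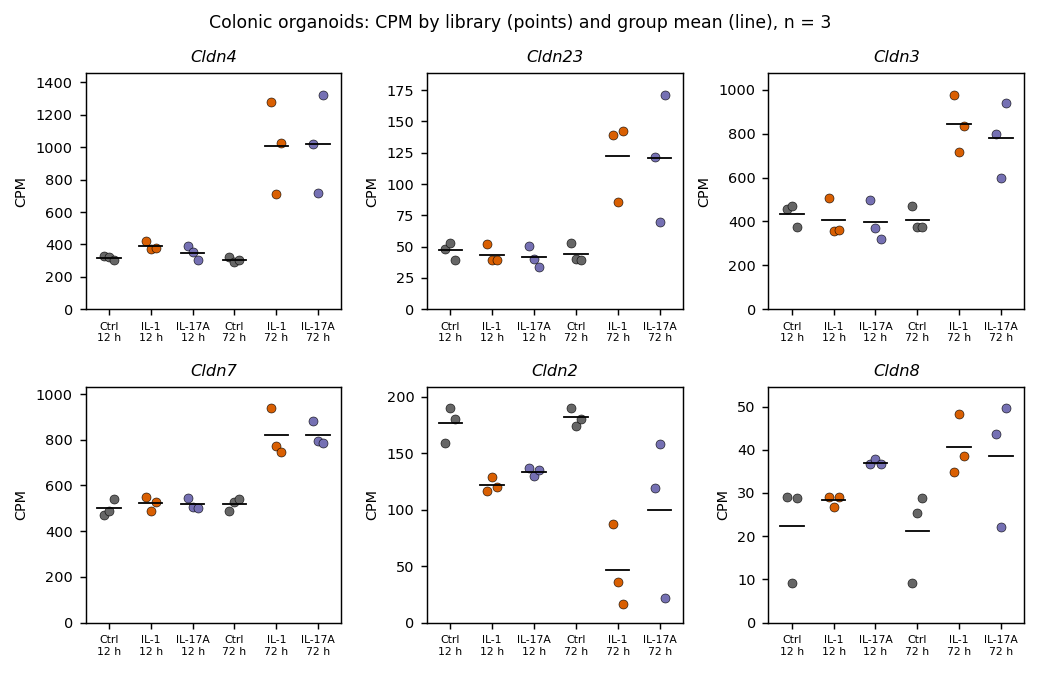
CPM of 6 claudins in each organoid library (points) with the group mean (line), n = 3 per group and axes from 0, at 12 and 72 h without cytokine, with IL-1 or with IL-17A. Cldn4 is 293 to 423 CPM in all libraries but those treated for 72 h, which lie at 711 to 1324 CPM. Cldn2 has its lowest group mean after 72 h of IL-1. In the controls, 2 of the 3 libraries are the same at 12 and 72 h.

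The effects of IL-1 at 72 and at 12 h were compared as the difference of the 2 effects. 3 of 9 members were called, where 2259 of 12955 rows, or 17.4%, were: Cldn23 (1.82 ± 0.35, adjusted p = 0.00752), Cldn4 (1.64 ± 0.30, adjusted p = 0.00613) and Cldn3 (1.41 ± 0.28, adjusted p = 0.00842). Each was positive, so that the gain over the controls was larger at 72 h, where it cannot be told apart from culture time. With each of the 4 distinct control libraries entered once, the 3 differences were 1.95, 1.69 and 1.51, each with an adjusted p of 0.0547, and none was called. For Cldn2 the difference was -1.51 ± 0.61 (adjusted p = 0.0871). For IL-17A no member was called by limma or edgeR, where 5 of 13022 rows, or 0.0384%, were by either tool, with 3 members and 2063 rows at an unadjusted p below 0.05 with the fold. Cldn4 then differed by 1.80 ± 0.36 (adjusted p = 0.0565), Cldn23 by 1.80 ± 0.50 (adjusted p = 0.0801) and Cldn3 by 1.31 ± 0.36 (adjusted p = 0.0801).

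The wider junction was read from a list of 30 partners, such as other scaffolds, junctional adhesion molecules and tricellular proteins. None of the 25 to 27 partners tested was called in a goblet cell comparison, and their median log2 fold change lay between -0.20 and 0.03. In distal GS4T cells 7 of 30 rose and 2 fell, where 1202 of the 15262 rows rose and 928 fell. The former were the scaffolds Cgn (3.37 ± 0.52, adjusted p = 0.00959) and Tjp3 (2.57 ± 0.44, adjusted p = 0.0128), the adhesion molecules F11r (2.01 ± 0.13, adjusted p = 0.00115) and Cxadr (2.27 ± 0.37, adjusted p = 0.0109), the tricellular proteins Lsr (1.89 ± 0.40, adjusted p = 0.0249) and Ildr1 (2.06 ± 0.46, adjusted p = 0.0272), and Marveld3 (2.50 ± 0.53, adjusted p = 0.0242). Jam2, an adhesion molecule also of non-epithelial cells, fell by 1.08 (adjusted p = 0.00808) and Ildr2 by 1.11 (adjusted p = 0.028). In proximal GS4T cells Jam2 and Ildr2 fell by 2.14 and 2.17, and F11r, Crb3, Lsr and Mylk were among those that rose, where 804 of 15319 rows rose and 668 fell. No partner was called in GA3T cells. The epithelial marker sums given above moved with these partners too.

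In organoids no partner was called at 12 h. After 72 h of IL-1, 3 of 26 rose, where 1414 of 13023 rows did, namely the polarity gene Pard6b (1.45 ± 0.26, adjusted p = 0.00612), Ildr1 (1.42 ± 0.28, adjusted p = 0.00848) and Cxadr (1.275 ± 0.25, adjusted p = 0.00751). After 72 h of IL-17A, 4 of 26 rose, namely Pard6b (1.65), Ildr1 (1.43), Cxadr (1.39) and Magi3 (1.08), and Lsr fell by 1.13 (adjusted p = 0.0373), where 656 of 13073 rows rose and 382 fell. Their median log2 fold change was 0.70 and 0.44, against 0.95 for the 9 members under both cytokines and about 0 over all rows. Of the 7 other claudins with a row in any table, 2 to 4 were tested in each comparison and Cldn10 alone was called, lower in proximal GS4T cells (-3.32 ± 0.75, adjusted p = 0.0451).

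**Figure D5:**
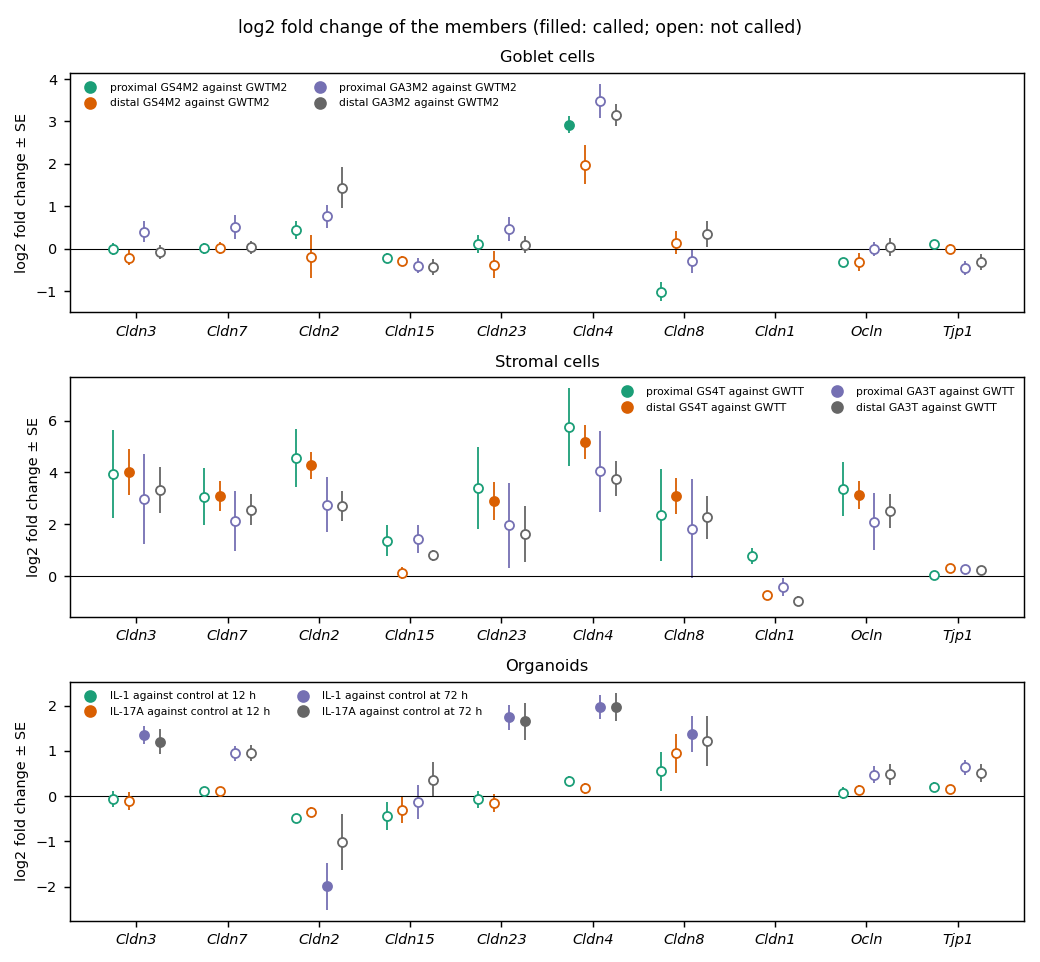
Log2 fold change of each member with its SE, in goblet cells, stromal cells and organoids, with filled points for called genes and open points for the rest. Cldn4 has the largest positive value in all 4 goblet cell and all 4 stromal comparisons and in both 72 h organoid comparisons, and the distal GS4T and 72 h panels hold most of the filled points.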

How the data were processed

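The deposited values of all 12 tables are signal values that the authors made by mapping reads uniquely to mm10 with STAR 2.5.3, counting them per gene and dividing each library by its DESeq2 1.28.1 size factor (normalized counts). The paper's methods do not state whether strand was used in counting, so reads of Cldn3 and of its antisense neighbour Wbscr25 may not be told apart. Within each table limma 3.58.1 was fitted to log2(value + 1) over all rows with a mean of at least 10 with Benjamini-Hochberg adjustment, so fold changes are on the log2(value + 1) scale. For genes with a few reads in 1 library they depend on the model, as with Cldn4 in proximal GS4T cells at 5.76 by limma and 4.33 by edgeR. Proximal and distal GWTM2 cells were compared as log2(CPM + 0.1) with a mean CPM of at least 0.5. Interactions were fitted over the 4 groups concerned. Every printed adjusted p is limma's unless edgeR or DESeq2 is named. Whole reads were recovered from the value of 1 read in each library (100% of values whole within 0.1) and served for CPM, edgeR 4.0.16 and DESeq2 1.42.0, of which edgeR called 0 to 2971 rows per comparison. Rows without a gene name, up to 28.2% of a library's reads, were left out of library sizes and tests. The fits were tested on simulated data. The members with a row were named singly or by their range in the comparisons of groups, and partners and other claudins where called, except 1 partner that is not reported here. The members and gene lists were chosen with earlier results of these data known, and the marker lists hold textbook genes. Groups compared share only 2 replicate numbers, which were not taken as pairs. Promoters were RefSeq's, and the alternatives tried are given below.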

Additional observations from a re-analysis of the deposited data

Results flagged for a closer look

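3 members differed between 12 and 72 h in their response to IL-1 in organoids, by a test of the difference itself. The effect at 72 h minus that at 12 h was 1.815 on the log2 scale for Cldn23, 1.638 for Cldn4 and 1.405 for Cldn3 (limma, adjusted p = 0.00752, 0.00613 and 0.00842). All 3 IL-1 libraries at 72 h lay above all 3 controls for each gene, and at 12 h only Cldn4 did so. Of all rows, 27.0% lay wholly above the controls at 72 h and 5.3% at 12 h. 2 of the 3 control libraries were the same at both times, so the response and culture time cannot be told apart. With each distinct control entered once the differences kept their sign and missed the threshold (adjusted p = 0.0547 for each).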

How the results depend on the processing

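The counts of members called were recomputed under each alternative, and the rows called in the same fit are given in brackets. DESeq2 gave 2 in proximal GS4M2 (270), 1 each in distal GS4M2 (147), proximal GA3M2 (431) and distal GA3M2 (240), 2 in proximal GS4T (2006) and 4 in distal GA3T cells (776). Replicate numbers are not known to pair libraries. With the replicate block 1 member was called in proximal GA3M2 (699), 1 in distal GA3M2 (4), 4 in proximal GS4T cells (1618), 0 after IL-17A at 72 h (4), 3 in the time difference of IL-17A (567) and 1, Cldn2, in proximal against distal GWTM2 cells (542), and correlations of same-numbered libraries ran from -0.19 to 0.64. A pseudocount of 10 gave 2 in proximal GS4T cells (1649). With a pseudocount of 0.1 Cldn23 was not called after IL-17A at 72 h (adjusted p = 0.05), which left 2, and with a mean value of at least 50 it was not called in distal GS4T cells (adjusted p = 0.0506) and Cldn8 was not tested, which left 5. Library sex as a block, chosen after seeing the data, gave 1 in proximal GA3M2 (82), 2 in distal GA3M2 (658), 4 in proximal GS4T (1559), 1 (Cldn1, lower) in distal GA3T cells (600) and 0 after IL-17A at 72 h (5). Also chosen after seeing the data, averaging near-identical libraries gave 0 after IL-17A at 72 h (2) and 4 after IL-1 at 72 h (2196), where Cldn2 was lost (adjusted p = 0.0521), and entering each distinct control once gave 0 in the time difference of IL-1 (0). All 12 goblet cell libraries gave 1 (Cldn8) in proximal against distal cells (607). Leaving out 1 library at a time gave 0 to 1 members in proximal GA3M2 (1 to 1036), 0 to 2 in distal GA3M2 (0 to 638), 0 to 8 in proximal GS4T (119 to 2154), 2 to 6 in distal GS4T (1194 to 1915), 0 to 3 in proximal GA3T (0 to 234), 0 to 1 in distal GA3T cells (0 to 749), 3 to 4 after IL-1 (2078 to 3396) and 0 to 5 after IL-17A at 72 h (3 to 3577), 0 to 3 in the time difference of IL-17A (0 to 2809) and 0 to 1 in proximal against distal GWTM2 cells (1 to 498). In the time difference of IL-1 it gave 3 to 4 (1258 to 2872), with Cldn2 added without IL1 72h replicate 1 (adjusted p = 0.00568). A group left with 1 library is assumed to vary like the other. The cause of these shifts was not tested. No log2 fold change of a member that was called turned its direction under any alternative.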
